A study of Homo sapiens with 33 samples.

Results

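The 10 genes described here are the interleukin-1 (IL-1) cytokines and receptors and the core parts of the inflammasome: IL1A, IL1B, IL1RN, IL18, IL1R1, IL1R2, NLRP3, PYCARD, CASP1 and GSDMD. They were found as the rows of the deposited count table whose Ensembl identifiers carry these symbols, 10 of 85160 genes, and not by any measured value. The cells were NB4, an established human acute promyelocytic leukaemia line that carries the PML-RARA fusion and matures along the myeloid path when given all-trans retinoic acid (ATRA). The groups were cultures given 1 µM ATRA for 4, 12, 24, 72 or 120 h, cultures given the solvent DMSO for the same times, and cultures harvested at 0 h without treatment, with 3 biological replicates in each of the 11 groups. Drug was renewed on day 3. All groups come from 1 leukaemia line, so the p-values measure the spread between cultures of that line. RNA was measured by strand-specific total RNA sequencing, and libraries held 18341456 to 33490654 fragments assigned to genes.

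IL-1α and IL-1β, made from IL1A and IL1B, are cytokines that bind the receptor made from IL1R1 and signal through the adaptor MYD88. The product of IL1RN binds the same receptor without signalling, and the product of IL1R2 is a decoy that takes up the cytokine. IL-1β and IL-18 are made as precursors that caspase-1 cuts, on a platform built by a sensor such as NLRP3 and the adaptor ASC, the product of PYCARD, and cut gasdermin D then forms pores in the membrane. In blood cells the system is known above all from monocytes and macrophages, where IL1B is induced strongly on activation.

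IL1A, IL1B and IL1RN lie near each other on chromosome 2, and 1 promoter window of each is shown. Each window is 250 bases before to 50 after a RefSeq transcript start on GRCh38.p14, read 5′ to 3′ on the gene's strand: chr2:112784444-112784743 (minus) for IL1A, chr2:112836730-112837029 (minus) for IL1B and chr2:113127348-113127647 (plus) for IL1RN. Capitals mark matches to 6 short motifs searched on both strands.
IL1A: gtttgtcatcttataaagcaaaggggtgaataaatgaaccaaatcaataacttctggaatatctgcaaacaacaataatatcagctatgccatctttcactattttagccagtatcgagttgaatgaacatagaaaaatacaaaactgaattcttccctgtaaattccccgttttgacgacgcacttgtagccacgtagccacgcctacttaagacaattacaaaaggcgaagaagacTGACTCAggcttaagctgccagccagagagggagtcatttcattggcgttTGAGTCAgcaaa
IL1B: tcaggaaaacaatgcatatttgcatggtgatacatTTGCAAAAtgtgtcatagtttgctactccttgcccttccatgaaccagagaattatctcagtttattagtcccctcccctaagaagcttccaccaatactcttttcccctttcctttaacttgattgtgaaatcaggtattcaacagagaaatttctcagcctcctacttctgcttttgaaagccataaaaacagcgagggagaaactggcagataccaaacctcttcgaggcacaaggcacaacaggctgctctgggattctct
IL1RN: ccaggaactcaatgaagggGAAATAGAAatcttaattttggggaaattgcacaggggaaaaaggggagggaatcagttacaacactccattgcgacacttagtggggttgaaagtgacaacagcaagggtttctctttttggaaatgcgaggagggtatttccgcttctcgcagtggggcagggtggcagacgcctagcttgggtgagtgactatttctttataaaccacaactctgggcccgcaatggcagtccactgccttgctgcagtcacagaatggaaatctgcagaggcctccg
The capitals in IL1A are 2 matches to the AP-1 letters TGANTCA, at offsets -12 and 38 from the start, a motif that 7.71% of 35116 RefSeq promoter windows of this length hold. In IL1B they are 1 match to the C/EBP-like letters TTGCNNAA at offset -215 (10.5% of windows), and in IL1RN 1 match to the interferon response element-like letters GAAANNGAA at offset -231 (8.11%). The NF-kB-like letters GGGANTTTC (1.28% of windows), the nuclear receptor half-site AGGTCA (13.8%) and the PU.1-like letters GAGGAA (27.9%) had no match in these 3 windows. IL1A and IL1RN have other RefSeq windows that are not shown. The IL1RN window chr2:113117721-113118020 (plus) also holds AP-1 letters, TGAGTCA at offset -223. Windows were found for 7 of the 10 genes, and those of IL18, CASP1 and GSDMD were not matched. A match is only a description of the letters.

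Levels are counts scaled to library size (CPM, with TMM scaling), given per library in the order of replicates 2, 4 and 5. ATRA was compared with DMSO at each time by edgeR's quasi-likelihood test over 22971 genes that passed a filter on low counts, with Benjamini-Hochberg adjustment, and a gene was called at an adjusted p under 0.05. IL18, with 107 fragments in all libraries together, and IL1R2, with 48, did not pass the filter. The other 8 genes were tested, and a gene that passes through its high groups alone had to differ, so the counts below are a description.

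At 4 h 2 of the 8 tested genes were higher in ATRA (CASP1 and GSDMD) and 2 lower (IL1RN and IL1R1), while 12.3% of all tested genes were called higher and 12.4% lower, 24.7% in all. At 12 h 4 were higher and 2 lower, against 20% and 18.7% of all tested genes (38.7% in all). At 24 h 3 were higher and 3 lower, against 17.4% and 15.8% (33.2% in all). At 72 h all 8 were higher, while 32.1% of all tested genes were called higher and 32.6% lower (64.7% in all). At 120 h 7 were higher, NLRP3 being the exception, and none was lower, against 34.9% and 35.6% (70.6% in all). The libraries of ATRA and DMSO did not overlap for 7, 7, 5, 8 and 7 of the 8 genes at the 5 times in order, and for 34.9%, 47.3%, 47%, 68.8% and 71.7% of all tested genes. The median log2 change of the 8 genes was 2.66 at 72 h and 3.04 at 120 h, and that of all tested genes was -0.02 and -0.03. CASP1 was higher in ATRA from 4 h on, and IL1A and IL1B passed the test at 72 and 120 h. Between 24 and 72 h the effect of ATRA itself increased for both cytokines, by 6.99 ± 1.05 for IL1A and 6.25 ± 0.37 for IL1B on the log2 scale (adjusted p = 5.57e-07 and 2.39e-17). The effect changed for 4, 1, 6 and 4 of the 8 genes from 4 to 12, 12 to 24, 24 to 72 and 72 to 120 h, while it changed for 14%, 6.9%, 45.9% and 39.3% of all tested genes.

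**Figure D1:**
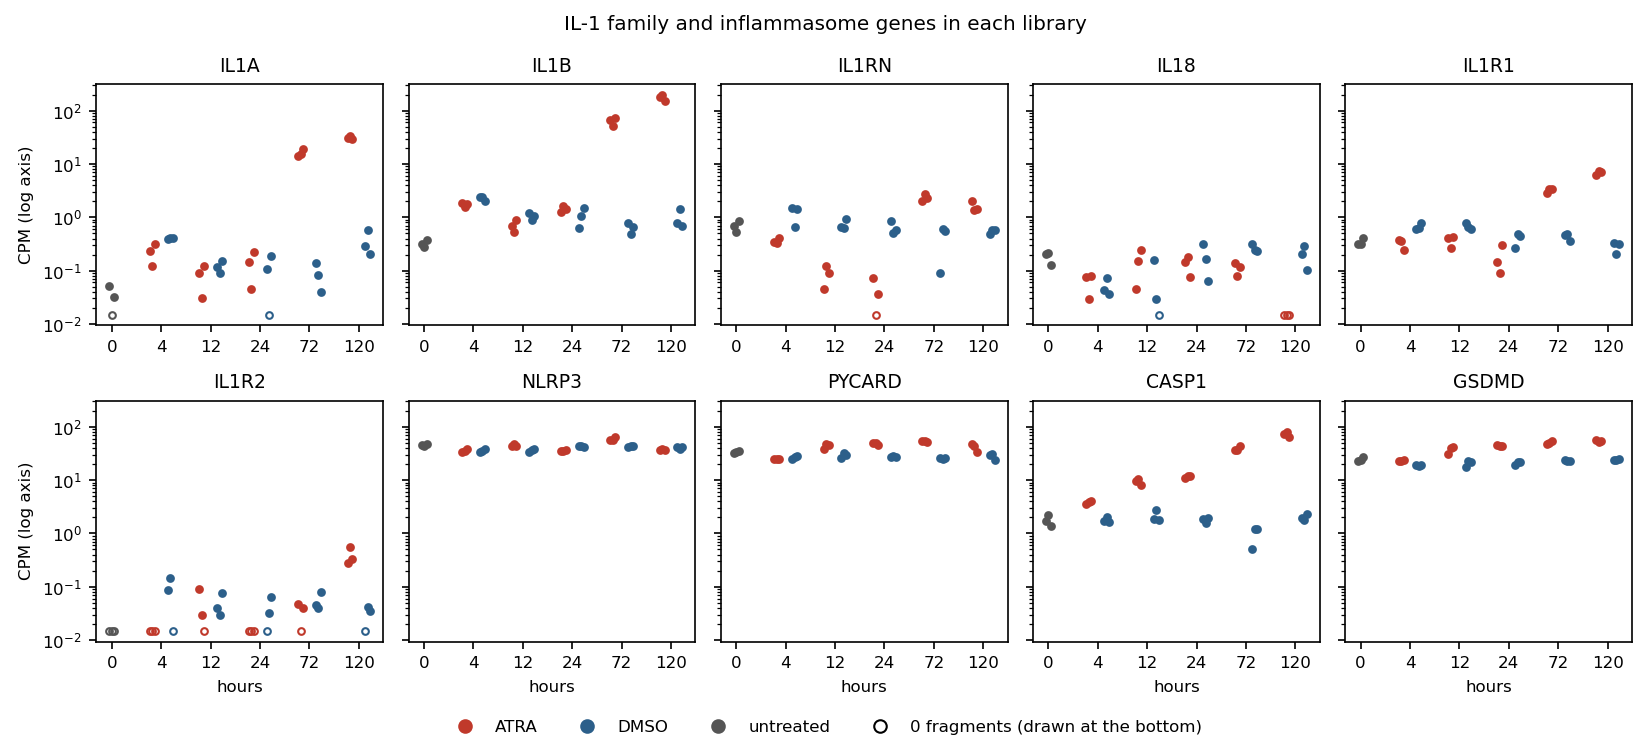
CPM of each gene in each of the 33 libraries on a log axis against hours, with ATRA (red) left of DMSO (blue) and untreated cells (grey) at 0 h; open circles at the bottom are libraries with 0 fragments. IL1A, IL1B, IL1R1 and CASP1 stand far above their DMSO libraries at 72 and 120 h, and NLRP3, PYCARD and GSDMD keep between 17.5 and 64.5 CPM in every library.

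IL1B reached the highest level of the cytokines. It had 66.7, 51.3 and 73.6 CPM in ATRA at 72 h, against 0.776, 0.486 and 0.669 CPM in DMSO. At 120 h it had 184, 193 and 155 CPM in ATRA, against 0.785, 1.44 and 0.692 CPM in DMSO. Every ATRA library of these times stood above every DMSO library, with wide gaps. The log2 change was 6.63 ± 0.18 (SE) at 72 h (adjusted p = 3.69e-29) and 7.53 ± 0.17 at 120 h (adjusted p = 1.79e-32), a fitted fold of 184 at 120 h. In bulk RNA a change in the share of cells that express a gene and a change of RNA per cell cannot be told apart. Earlier, IL1B stayed low: 1.83, 1.56 and 1.81 CPM in ATRA at 4 h against 2.40, 2.45 and 2.01 CPM in DMSO, a difference that missed the threshold (-0.41 ± 0.21; adjusted p = 0.171), as did 12 h (-0.57 ± 0.29; 0.124) and 24 h (0.38 ± 0.26; 0.282).

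IL1A, the cytokine that is active without caspase-1, had the same late timing from a lower base. It had 14.3, 15.1 and 18.8 CPM in ATRA at 72 h, against 0.137, 0.0810 and 0.0394 CPM in DMSO, the DMSO values standing for 6 fragments in all. At 120 h it had 30.5, 33.9 and 29.5 CPM in ATRA, against 0.289, 0.575 and 0.207 CPM in DMSO. The libraries of the 2 treatments were far apart at both times, and its log2 changes were 7.51 ± 0.31 (adjusted p = 2.33e-23) and 6.47 ± 0.23 (adjusted p = 2.15e-25). At 4, 12 and 24 h every library of either treatment held 11 or fewer fragments of it, and none of these comparisons passed (adjusted p = 0.167, 0.601 and 0.617). Across the 11 group means of log2 CPM IL1A and IL1B had a Pearson correlation of 0.987, a description over groups that share the cell line and the time course.

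IL1RN, the receptor antagonist, passed the test as lower in ATRA at 4, 12 and 24 h and as higher later. IL1A and IL1B also had negative log2 changes at 4 and 12 h, which missed the threshold. At 4 h IL1RN had 0.343, 0.329 and 0.402 CPM in ATRA, against 1.5, 0.659 and 1.42 CPM in DMSO. At 12 h it had 0.0453, 0.120 and 0.0910 CPM in ATRA, against 0.672, 0.619 and 0.917 CPM in DMSO. All ATRA libraries lay below all DMSO libraries at both times, with log2 changes of -1.73 ± 0.37 (adjusted p = 0.000412) and -2.95 ± 0.50 (adjusted p = 7.31e-06). At 24 h it was all but gone: 2, 0 and 1 fragments in ATRA, against 16, 16 and 18 fragments in DMSO. The DMSO to ATRA ratio of these sums, scaled for library size, was 15.8 (95% counting interval 5.09 to 79.0; adjusted p = 4.59e-06), and counting intervals here cover counting error only. Without ATRA replicate 2, 1 fragment was left in ATRA and the adjusted p was 2.68e-05. At 72 h it had turned to 2.00, 2.77 and 2.31 CPM in ATRA, against 0.0912, 0.608 and 0.551 CPM in DMSO. At 120 h it had 2.02, 1.36 and 1.40 CPM in ATRA, against 0.496, 0.575 and 0.588 CPM in DMSO. ATRA libraries were then the higher ones without overlap, by 2.46 ± 0.35 (adjusted p = 7.67e-08) and 1.51 ± 0.35 (adjusted p = 0.000209) on the log2 scale.

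The level of antagonist RNA relative to agonist RNA was lower in ATRA than in DMSO at each of the 5 times. Within each library the counts of IL1RN and IL1B were divided by the gene models' lengths, and the ratio of these per-length levels was taken. In untreated cells it was 1.72, 1.49 and 1.79, the antagonist RNA being the more abundant. At 120 h it was 0.00873, 0.00562 and 0.00722 in ATRA, against 0.502, 0.318 and 0.676 in DMSO. The geometric means at 4 h were 0.164 in ATRA and 0.391 in DMSO, and at 12 h 0.0916 in ATRA and 0.549 in DMSO. At 24 h they were 0.0300 in ATRA, over the 2 libraries with a fragment of IL1RN, and 0.504 in DMSO, and at 72 h 0.0294 in ATRA and 0.393 in DMSO. The log2 differences, ATRA minus DMSO, were -1.25, -2.58, -4.07, -3.74 and -6.07 at the 5 times in order. Libraries of the 2 treatments did not overlap at any time, and the exact two-sided permutation test gave p = 0.1 at 4, 12, 72 and 120 h, the smallest that 3 against 3 libraries allow, and 0.2 at 24 h, the smallest that 2 against 3 allow. At 72 h the DMSO mean rests partly on replicate 2, whose ratio was 0.0935 from 2 fragments of IL1RN, and without it the log2 difference was -4.78, while without DMSO replicate 4 it was -3.07.

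**Figure D2:**
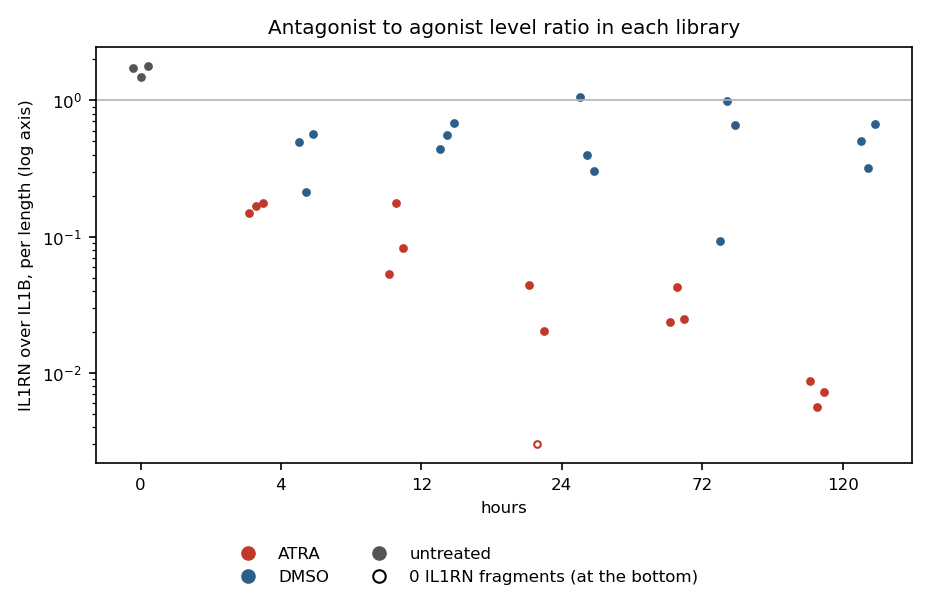
Ratio of IL1RN to IL1B per-length level in each library, on a log axis, against hours, with ATRA (red) left of DMSO (blue), untreated cells (grey) at 0 h and an open circle for the ATRA library with 0 IL1RN fragments. The line marks equal levels: untreated libraries lie above it at 1.49 to 1.79, and the 3 ATRA libraries of 120 h lie lowest among the libraries with a ratio, at 0.00562 to 0.00873.

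IL18, the other cytokine that caspase-1 cuts, was close to the limit of detection in every group. It had 0, 0 and 0 fragments in ATRA at 120 h, against 5, 7 and 3 fragments in DMSO. With a floor of 3 counts over the ATRA group this was a 3.95-fold lower level in ATRA. That value leaves out the counting error of the DMSO fragments. At 72 h ATRA had 3, 2 and 3 fragments and DMSO 7, 6 and 6, a ratio of 0.417 (95% counting interval 0.158 to 0.997). No ATRA library reached any DMSO library at these 2 times, whereas at 4, 12 and 24 h the ranges of 1 to 8 fragments in ATRA and 0 to 6 fragments in DMSO overlapped. In the fit with no filter on low counts the 120 h difference passed (adjusted p = 0.00124) and those of the other times did not.

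Of the receptors, IL1R1 was lower in ATRA first and higher later. At 72 h it had 2.83, 3.36 and 3.32 CPM in ATRA, against 0.456, 0.486 and 0.354 CPM in DMSO. At 120 h it had 6.19, 7.46 and 6.97 CPM in ATRA, against 0.331, 0.205 and 0.311 CPM in DMSO. Neither time showed overlap, and the log2 changes were 2.87 ± 0.25 (adjusted p = 5.07e-13) and 4.58 ± 0.25 (adjusted p = 3.06e-19). The early differences from DMSO were of 1 log2 unit or so and rested on few fragments: -1.0 ± 0.31 at 4 h (adjusted p = 0.0133), -0.90 ± 0.30 at 12 h (0.0139) and -1.17 ± 0.38 at 24 h (0.0216), with 2 to 22 fragments in a library. At 4 and 12 h ATRA averaged 0.327 and 0.368 CPM, near the 0.348 CPM of untreated cells, and DMSO 0.663 and 0.683 CPM. At 24 h ATRA averaged 0.177 CPM and DMSO 0.398 CPM. The treatments' libraries did not overlap at 4 and 12 h but did at 24 h, where the highest ATRA library had 0.298 CPM and the lowest DMSO library 0.268 CPM. These 3 calls depended on single libraries. At 4 h the adjusted p was 0.0761 without DMSO replicate 5 and 0.0742 without ATRA replicate 5, and at 12 h 0.0571 without DMSO replicate 2 and 0.0977 without ATRA replicate 4. At 24 h it was 0.103 and 0.0649 without DMSO replicate 4 or 5 and 0.0960 and 0.118 without ATRA replicate 2 or 4, while without ATRA replicate 5 the log2 change was -1.77. All 3 were also lost with no filter on low counts (adjusted p = 0.0794, 0.0812 and 0.111), and that of 4 h when its 2 groups were fitted alone (0.0539).

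IL1R2, the decoy receptor, was seen at 120 h in ATRA and hardly elsewhere. It had 5, 12 and 7 fragments in ATRA at 120 h, against 0, 1 and 1 fragments in DMSO, a ratio of 15.2 (95% counting interval 3.78 to 133), and in the fit with no filter on low counts the adjusted p was 0.00277. The other groups held 0 to 6 fragments in all 3 libraries together. Its gene model shares 33.1% of its exon length with that of IL1R1 on the same strand, and fragments there were counted for both genes, so how much of these counts belongs to IL1R1, which also stood at its highest in ATRA at 120 h, is uncertain.

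NLRP3, the sensor, was present throughout and moved little. It had 56.9, 57.4 and 64.5 CPM in ATRA at 72 h, against 41.5, 43.6 and 44.3 CPM in DMSO, and all ATRA libraries were above all DMSO libraries (0.47 ± 0.07; adjusted p = 9.56e-08). At 12 h it was higher in ATRA, with 42.8, 46.9 and 43.0 CPM against 34.3, 37.2 and 37.9 CPM in DMSO (0.28 ± 0.07; adjusted p = 0.000849). At 24 h the order was turned round, with 35.4, 35.5 and 36 CPM in ATRA against 43.5, 44.3 and 42.1 CPM in DMSO (-0.28 ± 0.07; adjusted p = 0.00101). The treatments did not differ beyond the test's threshold at 4 h (0.00; adjusted p = 0.998) or at 120 h (-0.10 ± 0.07; adjusted p = 0.172). The last passed as lower in ATRA, by 0.15 to 0.21 on the log2 scale, without any 1 of 18 libraries (adjusted p = 0.0146 to 0.0492). Of these only DMSO 120 h replicate 4, whose absence gave the largest value, was part of the comparison. The rest were untreated or of other times and gave -0.15 to -0.16.

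PYCARD, the adaptor, rose from 12 h on. It had 53.4, 54.0 and 52.6 CPM in ATRA at 72 h, against 25.5, 25.2 and 26.3 CPM in DMSO, with no overlap and very small spread within either group (1.05 ± 0.10; adjusted p = 1.73e-12). The log2 change was 0.59 ± 0.09 at 12 h (adjusted p = 2.25e-06), 0.79 ± 0.10 at 24 h (7.95e-09) and 0.57 ± 0.10 at 120 h (2.01e-06). At 120 h ATRA had 47.1, 43.8 and 33.1 CPM and DMSO 29.3, 30.5 and 24.0 CPM, replicate 5 being the lowest of each group. At 4 h the difference of -0.12 missed the threshold (adjusted p = 0.416).

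CASP1, the protease, had the most regular course and rose at every time. It had 3.62, 3.80 and 4.06 CPM in ATRA at 4 h, against 1.67, 2.02 and 1.61 CPM in DMSO. At 24 h it had 10.9, 11.7 and 11.7 CPM in ATRA, against 1.88, 1.55 and 1.98 CPM in DMSO, and at 120 h 74.3, 80.1 and 64.6 CPM in ATRA, against 1.90, 1.81 and 2.32 CPM in DMSO. The ATRA groups of the 5 times, ranked by level, did not overlap with each other, and all lay above every DMSO and untreated library. The log2 changes were 1.11 ± 0.19 at 4 h (adjusted p = 1.13e-05), 2.07 ± 0.16 at 12 h (4.78e-14), 2.67 ± 0.16 at 24 h (6.05e-17), 5.29 ± 0.17 at 72 h (8.39e-27) and 5.17 ± 0.15 at 120 h (1.16e-28). Its model shares 12.0% of its exon length with CARD16, CARD17P and CASP1P2, near-identical neighbours, so a part of its counts is uncertain.

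GSDMD, the pore-forming protein, rose early and levelled off. It had 23.1, 22.7 and 23.6 CPM in ATRA at 4 h, against 18.8, 18.4 and 19.3 CPM in DMSO, groups that did not overlap (0.30 ± 0.10; adjusted p = 0.0195). Without ATRA 4 h replicate 5 that call was just lost (0.29; adjusted p = 0.0502), and it was also lost without replicate 4 or replicate 5 of every group (adjusted p = 0.134 and 0.0847). At 120 h it had 57.6, 52.1 and 53.2 CPM in ATRA, against 23.7, 24.2 and 24.7 CPM in DMSO. The ATRA libraries stood far above those of DMSO, and the log2 change was 0.86 ± 0.09 at 12 h (adjusted p = 6.36e-10), 1.08 ± 0.09 at 24 h (1.87e-12), 1.13 ± 0.09 at 72 h (9.30e-14) and 1.16 ± 0.09 at 120 h (2.55e-14).

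**Figure D3:**
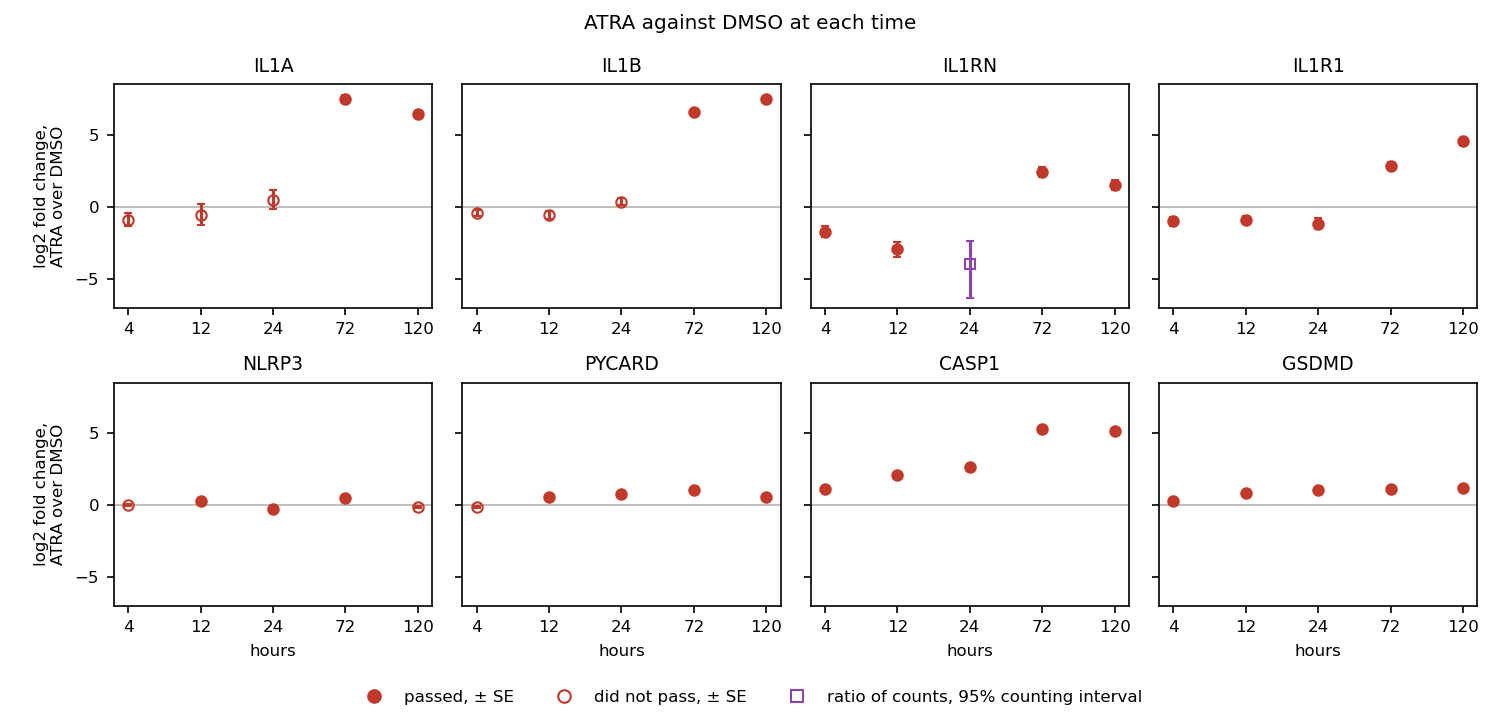
Log2 fold change, ATRA over DMSO, of the 8 tested genes against hours, with the standard error as a bar (hidden where smaller than the point); filled points passed the test and open points did not. The square for IL1RN at 24 h is the ratio of fragment sums with its 95% counting interval; IL1A and IL1B lie near 0 up to 24 h and between 6.47 and 7.53 later, while CASP1 is above 0 at every time.

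Some of the libraries differ in ways that touch these values. Libraries of 0, 4 and 12 h were run in sequencing lane 4, and from 24 h on replicate 2 was run in lane 2 and replicates 4 and 5 in lane 3, per the file's column headers, so that ATRA and DMSO of one time shared their lanes. Within lane 3, from replicates 4 and 5 alone, the 72 h changes were 8.02 for IL1A, 6.72 for IL1B, 2.10 for IL1RN, 2.96 for IL1R1 and 5.02 for CASP1, and those of 120 h were 6.33, 7.33, 1.19, 4.71 and 5.07 in the same order of genes. DMSO at 72 h stood apart from the other DMSO groups over many genes, with 11854 of all tested genes called against untreated cells. With the mean of DMSO at 24 and 120 h in its place, all 8 genes were still called at 72 h, with changes of 6.39 for IL1A, 5.95 for IL1B, 4.36 for CASP1, 3.19 for IL1R1 and 2.00 for IL1RN.

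The markers of cell type moved in the same samples. Promyelocyte markers (MPO, PRTN3, CTSG, AZU1, ELANE, CD33 and KIT) summed to 452 to 667 CPM in ATRA at 120 h, against 9326 to 11450 CPM in DMSO. MPO made up most of these sums, with means of 423 CPM in ATRA and 9624 CPM in DMSO. CD33 was level at 120 h, at 42.2 CPM in ATRA and 42.7 CPM in DMSO. PRTN3 was higher in ATRA at 72 h (1190 against 464 CPM) and lower at 120 h (87.3 against 914 CPM). Monocyte and macrophage markers summed to 344 to 397 CPM in ATRA at 72 h against 49.2 to 57.9 CPM in DMSO, and to 664 to 775 CPM in ATRA at 120 h against 64.7 to 72.3 CPM in DMSO, with 9 of 10 detected in all these ATRA libraries and MRC1 at 0. CD68 alone averaged 196 CPM in ATRA at 72 h and 336 CPM at 120 h, and its model shares 85.8% of its exon length with other genes on the same strand. LYZ was lower in ATRA at 72 h (1.84 against 10.3 CPM) and higher at 120 h (30.5 against 20.8 CPM). Neutrophil markers summed to 399 to 453 CPM in ATRA at 120 h and to 180 to 224 CPM in DMSO. Lymphocyte markers summed to 337 to 398 CPM in ATRA at 120 h and to 45.3 to 60.8 CPM in DMSO, nearly all of it NKG7, whose model overlaps other genes, with CD2 and MS4A1 at 0 in ATRA. Their part in the results above was not tested.

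In the solvent cultures, compared with untreated cells, fewer of the 8 genes were called from 12 h on than for ATRA against DMSO, and more at 4 h. IL1B at 4 h changed by 2.78 in DMSO against untreated cells and by -0.41 in ATRA against DMSO. Its solvent change was also the larger at 12 and 24 h. Each DMSO group was compared with the untreated libraries, which all 5 comparisons share. At 4 h 3 of the 8 tested genes were higher in DMSO and 3 lower, while 15.7% of all tested genes were higher and 15.7% lower (31.4% in all). At 12 h 2 were higher and 1 lower, against 11.2% and 11.5% (22.7% in all), and at 24 h 1 and 1, against 9.87% and 9.24% (19.1% in all). At 72 h 0 were higher and 2 lower, against 26.9% and 24.7% (51.6% in all), and at 120 h 2 and 1, against 12.3% and 9.58% (21.9% in all). From 24 h on the DMSO libraries and the untreated ones were run in different lanes, and lane and group cannot be told apart.

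Of the 8 tested genes, IL1A and IL1B differed most from untreated cells at 4 and 120 h. IL1B had 2.40, 2.45 and 2.01 CPM in DMSO at 4 h, against 0.314, 0.283 and 0.380 CPM in untreated cells, without overlap (2.78 ± 0.31; adjusted p = 3.22e-09). It was still higher at 12 h (1.65 ± 0.36; adjusted p = 0.000617), 24 h (1.74 ± 0.35; 0.000388) and 120 h (1.53 ± 0.37; 0.00225), and just missed the threshold at 72 h (0.95 ± 0.41; 0.0519). The 72 h difference passed without any 1 of 13 libraries (adjusted p = 0.0288 to 0.0488), with DESeq2 (0.0234) and with its 2 groups fitted alone (0.0343). IL1A had 31 fragments in the 3 DMSO libraries at 4 h and 2 in the untreated ones, a ratio of 15.7 (95% counting interval 3.99 to 135; adjusted p = 0.000103), and 27 against 2 at 120 h, a ratio of 13.8 (3.46 to 119; adjusted p = 0.000490).

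The changes of the other genes that passed the test were under 1 log2 unit. IL1R1 was higher in DMSO at 4 h (0.90; adjusted p = 0.0231) and 12 h (0.94; 0.0216), calls that ended without untreated replicate 2 (0.0610 and 0.0613) or 4 (0.0924 and 0.0930), without DMSO 4 h replicate 5 (0.112) and without DMSO 12 h replicate 2 (0.0904). NLRP3 fell at 4 h (-0.36; adjusted p = 7.16e-05) and 12 h (-0.32; 0.000390), and GSDMD at 4 h (-0.39 ± 0.10; 0.00153). PYCARD was lower in DMSO at 4 h (-0.33; adjusted p = 0.00808), 24 h (-0.28; 0.0330), 72 h (-0.38; 0.000998) and 120 h (-0.27; 0.0405). The 24 h call of PYCARD was lost without untreated replicate 4 or 5 or DMSO replicate 2 or 5 (adjusted p = 0.0593 to 0.111), and the 120 h call without any of 5 libraries (0.0501 to 0.314), most of all DMSO 120 h replicate 5. CASP1 was lower in DMSO at 72 h (-0.81 ± 0.25; adjusted p = 0.00611), a call that ended without untreated replicate 4 (-0.57; 0.0934) or DMSO 72 h replicate 2 (-0.55; 0.0667). IL18 had 4 fragments in DMSO at 4 h against 14 in untreated cells, a ratio of 0.289 (95% counting interval 0.0693 to 0.920). In the edgeR fit with no filter on low counts this difference did not pass (adjusted p = 0.289). A few differences that missed the threshold passed when 1 library was left out: IL1RN at 4 h without DMSO 4 h replicate 4 (1.07; adjusted p = 0.0166) or DMSO 72 h replicate 2 (0.77; 0.0486), GSDMD at 12 h without DMSO 12 h replicate 4 (-0.32; 0.0280) or ATRA 12 h replicate 2 (-0.25; 0.0300), GSDMD at 24 h without ATRA 12 h replicate 2 (-0.24; 0.0425), and NLRP3 at 120 h without any 1 of 7 libraries (-0.19; 0.0313 to 0.0499).

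Per length, the order of the members changed with ATRA. Fragments were counted over the deposited gene models, which are longer than the GENCODE 29 exons by unlike factors. The 2 lengths were 40008 and 4757 bases for NLRP3, and 12185 and 5116 bases for GSDMD. Levels of different genes are therefore only roughly comparable. In mean CPM per kilobase of GENCODE 29 exon, ATRA at 120 h had 57.3 for IL1B, 24.9 for PYCARD, 19.7 for CASP1, 14.8 for IL1A, 10.6 for GSDMD, 7.90 for NLRP3, 0.971 for IL1R1 and 0.491 for IL1RN. Untreated cells had 20.2 for PYCARD, 9.59 for NLRP3, 4.82 for GSDMD, 0.475 for CASP1, 0.212 for IL1RN, 0.105 for IL1B, 0.0492 for IL1R1 and 0.0132 for IL1A. IL1B was the most abundant of these 8 genes in ATRA at 120 h and among the 3 least abundant in untreated cells, while the adaptor, the sensor and gasdermin D led in untreated cells. With the longer deposited gene models IL1A (4.10) and GSDMD (4.46) change places in ATRA at 120 h, and NLRP3 (1.14) and GSDMD (2.02) in untreated cells.

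The genes most like each member in their 11 group means, among 11166 protein-coding genes with a mean log2 CPM of at least 1, differed between members. IL1A was closest to TGFB1 (Pearson r = 0.988) and GCH1 (0.985), IL1B to IFIT2 (0.984), MTF1 (0.984) and ZNFX1 (0.983), and IL1R1 to DIP2B (0.982). CASP1 was closest to NMI (0.993), with TRIM21 (0.990) also near, GSDMD to ERAP2 (0.992) and PYCARD to PLB1 (0.971). IL1RN was closest to PRICKLE1 (0.970), and NLRP3 had no gene closer than NSD3 (0.881). Among the members, GSDMD had r = 0.937 with CASP1 and 0.909 with PYCARD, and IL1RN 0.204 with CASP1. These are descriptions over 11 groups of 1 cell line.

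Other genes of the pathway were taken from lists chosen by role. Log2 changes are given for times at which a gene was among the 3 of smallest p in its list. A gene may also have been called at times not named for it. Of 7 other IL-1 family ligands none passed the filter, and IL36G, the most counted, had 53 fragments in all 33 libraries. Of 6 tested receptors and binding proteins 1, 6, 5, 5 and 5 rose at 4, 12, 24, 72 and 120 h, and 1, 0, 0, 0 and 1 fell, beside 24.7%, 38.7%, 33.2%, 64.7% and 70.6% of all tested genes called in either direction, and a count near these shares is not a result about a list. The IL-18 receptor chains led the late rises: IL18RAP rose by 6.38 at 72 h and by 4.37 at 120 h, and IL18R1 by 3.87 and by 3.08, beside the near absence of IL18 itself. IL18RAP averaged 24.6 ± 1.60 CPM in ATRA at 72 h and 0.288 ± 0.139 CPM in DMSO (SD, n = 3 each). SIGIRR, a negative regulator of these receptors, rose by 1.10, 2.11 and 1.54 at 4, 12 and 24 h, and IL1RAP, the signalling partner of IL1R1, by 0.80 at 24 h and 1.31 at 72 h. SIGIRR and IL1RAP were also called higher at 120 h, and IL1RAP at 12 h. IL1RL1, the receptor of IL-33, fell by 0.58 at 4 h and by 1.32 at 120 h. In between it was among the 6 genes that rose at 12 h, and it was not called lower at 24 or 72 h.

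Of 14 tested signalling genes 1, 2, 3, 8 and 11 rose at the 5 times and 3, 1, 3, 1 and 1 fell. Of all tested genes 24.7%, 38.7%, 33.2%, 64.7% and 70.6% were called in either direction. The share of the list was near these at 4 and 72 h. The median log2 change of this list was 0.24 at 72 h and 0.56 at 120 h, against -0.02 and -0.03 for all tested genes. MYD88, the adaptor of the receptor, was lower in ATRA at 4 h (-0.29) and then higher, by 0.42, 0.71, 3.29 and 4.21. It averaged 140.7 ± 8.57 CPM in ATRA at 120 h and 7.59 ± 0.345 CPM in DMSO (SD, n = 3 each). IRAK3, a brake on the pathway, fell by 0.56 at 24 h, TOLLIP fell by 0.41 at 4 h and rose by 1.55 at 120 h, and the kinase IRAK4 rose by 0.38, 0.41 and 0.33 at 4, 12 and 24 h. TAB1 fell by 0.72 at 72 h, CHUK by 0.34 at 12 h, and IRAK2, whose model shares 41.7% of its exon length with other genes, rose by 0.85 and 1.49 at 72 and 120 h.

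Of 8 tested other sensors 3, 4, 3, 5 and 5 rose and 0, 0, 2, 2 and 1 fell at the 5 times. Beside them 24.7%, 38.7%, 33.2%, 64.7% and 70.6% of all tested genes were called in either direction. The list medians were 2.08 at 72 h and 1.33 at 120 h. NLRC4 rose at every time, by 1.43, 1.56, 1.68, 4.54 and 4.64, and averaged 71.7 ± 6.97 CPM in ATRA at 120 h and 2.90 ± 0.511 CPM in DMSO. NLRP12 rose by 1.42, 1.95, 1.16, 6.24 and 7.17, CARD8 by 1.21 and 1.24 at 72 and 120 h, and NLRP1 fell by 1.61 at 24 h. Of 10 tested regulators 5, 3, 4, 9 and 6 rose and 0, 1, 1, 1 and 0 fell, beside the same shares of all genes, with medians of 0.45 at 72 h and 0.75 at 120 h. SERPINB1, an inhibitor of inflammatory caspases and neutrophil proteases, rose at every time (1.61, 2.71, 2.68, 5.12 and 4.67), and so did GBP5, a GTPase that promotes inflammasome assembly (2.5, 3.55, 3.08, 5.29 and 7.69). P2RX7, the ATP-gated channel whose opening triggers NLRP3, fell by 2.17 at 24 h and by 1.51 at 72 h, and TXNIP rose by 0.46 at 4 h and 2.33 at 120 h. CARD16, a decoy of CASP1, rose by 2.18 at 12 h, and its model shares 70.1% of its exon length with CASP1 and 2 pseudogenes.

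Of 6 tested caspases, gasdermins and rupture genes 3, 3, 3, 3 and 4 rose and 1, 2, 2, 2 and 2 fell at the 5 times. Beside them 24.7%, 38.7%, 33.2%, 64.7% and 70.6% of all tested genes were called in either direction. The medians were 0.94 at 72 h and 1.68 at 120 h. NINJ1, which ruptures the membrane of dying cells, rose at every time (1.03, 1.07, 0.52, 2.76 and 3.25). CASP4, the sensor of intracellular lipopolysaccharide, rose by 0.40, 0.61 and 1.29 at 4, 12 and 72 h, and CASP8 by 0.51 at 24 h and 1.86 at 120 h. GSDMC fell at every time, by up to 2.71 at 120 h, with 76.7% of its exon length shared with other models. Of 12 tested genes known to respond to IL-1 5, 3, 2, 10 and 11 rose and 3, 5, 3, 1 and 0 fell, beside the same shares, with medians of 2.69 at 72 h and 3.49 at 120 h. The chemokine CCL2 (1.58, 3.04, 3.24, 7.50 and 7.13) rose at all times. The adhesion molecule ICAM1 rose by 2.65, 2.29, 1.29 and 5.63 at 4, 12, 24 and 72 h. At 120 h it was not among the 3 genes of smallest p, and its value is not given. CXCL8, the neutrophil chemokine, fell by 0.60 at 12 h and rose by 4.89 and 5.75 at 72 and 120 h, and TNFAIP3, an inhibitor of NF-kB, fell by 0.61 at 4 h and by 0.97 at 24 h. SOD2 rose by 3.79 at 120 h. All rises and falls named here are of ATRA against DMSO at the same time, and passed the same test over all genes.

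**Figure D4:**
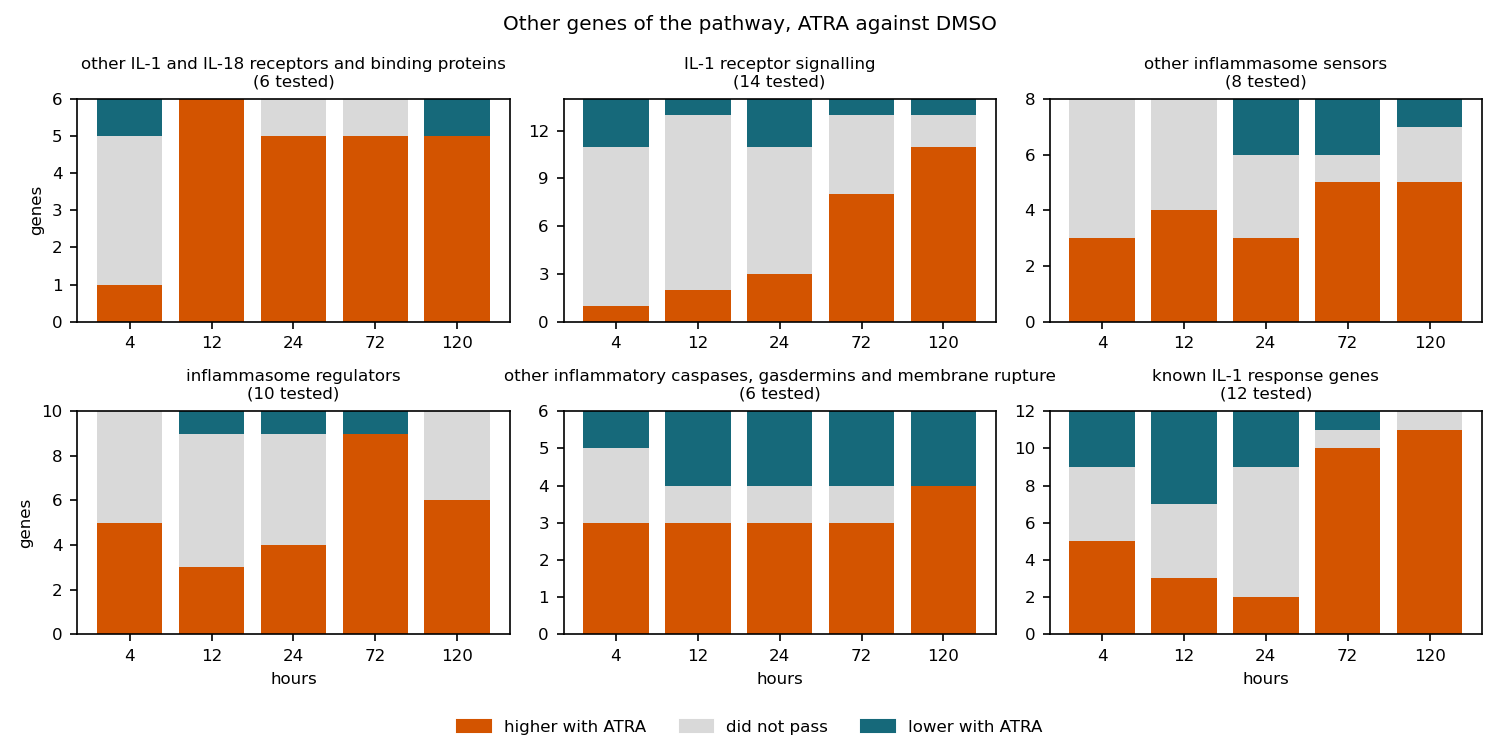
Number of tested genes of 6 pathway lists that were higher in ATRA (orange), lower (teal) or did not pass (grey) against hours. The signalling list had 1 of 14 genes higher at 4 h and 11 of 14 at 120 h, and the IL-1 response list 5 of 12 at 4 h and 11 of 12 at 120 h. Of all tested genes 12.3% were higher at 4 h and 34.9% at 120 h.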

How the data were processed

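Strand-specific total RNA libraries (Illumina, paired 150-base reads) were made from 33 NB4 cultures. Each value is the number of fragments assigned to a gene: raw counts that the authors obtained with featureCounts 1.5.1, counting by strand, per the file headers. Where genes overlap on 1 strand, a fragment counted for all of them, per the file headers. Gene models merged Ensembl and FANTOM CAT on GRCh38, with the sequence of Ensembl release 90, per the file headers. The submitters' processing notes name Trimmomatic 0.36, STAR 2.5.2b and Subread 1.5.1. Symbols came from GENCODE 29.

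The counts were analysed with edgeR 4.0.16 (R 4.3.3): TMM scaling (factors 0.8273 to 1.108), filterByExpr, 1 mean for each of 11 groups over all 33 libraries, the quasi-likelihood test, and Benjamini-Hochberg adjustment over 22971 of 85160 genes, with a threshold of 0.05. The median library held 25927472 fragments, so genes below 1 CPM rest on few fragments and their values are less precise. Ratios with 0 to 3 counts in a group are given from fragment sums with a 95% counting interval, or a floor of 3 counts. Replicate numbers are those of the sample titles. No 2 replicates differed by less than sampling noise (chi-square over its degrees of freedom 2.67 or more). Scripts were tested on simulated data.

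The genes and pathway lists were chosen with earlier results of these data known. The text names all 10 genes, from each list up to 3 genes of smallest p in each ATRA comparison, and for each tested gene up to 3 protein-coding genes of highest correlation. A few genes that this rule names are not reported here. Promoter windows are RefSeq's, on GRCh38.p14. Alternatives were RLE scaling, no filter, a replicate block, counts without mitochondrial and small RNA genes, the groups of a comparison alone, DESeq2 1.42.0, and each library or replicate number left out. A left-out library of a group outside a comparison acts on it only through the filter, the scaling and the shared estimate of spread. For the IL1RN to IL1B ratio they were no length, another length and 0.5 fragments added. The GENCODE exon length was added after seeing the data.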

Additional observations from a re-analysis of the deposited data

Results flagged for a closer look

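The effect of ATRA on a gene was compared between neighbouring times with the same edgeR model, as the ATRA minus DMSO log2 change at the later time minus that at the earlier time. These contrasts share the groups of the time in common. Each value below is such a difference with its standard error.

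Between 4 and 12 h the effect increased for 4 of the 8 tested genes, all parts of the inflammasome, while 14% of all tested genes had a changed effect: PYCARD by 0.71 ± 0.14 (adjusted p = 0.000181), GSDMD by 0.56 ± 0.13 (0.00264), CASP1 by 0.95 ± 0.25 (0.00735) and NLRP3 by 0.28 ± 0.10 (0.0431). The call of NLRP3 was lost without any 1 of 29 libraries (adjusted p = 0.0515 to 0.171), that of CASP1 with replicates 4 and 5 alone (0.83; 0.114) and that of GSDMD without replicate 5 of every group (0.49; 0.0541). Between 12 and 24 h 1 gene changed, against 6.9% of all genes: NLRP3, whose effect turned from higher to lower in ATRA, by -0.56 ± 0.10 (adjusted p = 6.87e-05).

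Between 24 and 72 h the effect increased for 6 of the 8 genes, against 45.9% of all tested genes changed in either direction. The increases were 6.99 ± 1.05 for IL1A (adjusted p = 5.57e-07), 6.25 ± 0.37 for IL1B (2.39e-17), 4.04 ± 0.46 for IL1R1 (1.62e-09), 2.62 ± 0.27 for CASP1 (1.60e-10) and 0.75 ± 0.10 for NLRP3 (2.03e-08). That of IL1RN, 6.31 ± 0.70 (1.06e-09), is a fitted value that rests on 3 fragments in ATRA at 24 h. IL1A was at 7.64 without DMSO 24 h replicate 4, which held 0 fragments, and at 5.80 without DMSO 24 h replicate 5. IL1RN was at 7.09 without ATRA 24 h replicate 2.

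Between 72 and 120 h the effect increased further for IL1R1, by 1.71 ± 0.40 (adjusted p = 0.000619), and for IL1B, by 0.89 ± 0.36 (0.0426), and became smaller for NLRP3, by -0.57 ± 0.10 (5.28e-06), and PYCARD, by -0.49 ± 0.14 (0.00362), while 39.3% of all genes changed. The call of IL1B was lost without any 1 of 17 libraries (0.70 to 0.88; adjusted p = 0.0501 to 0.176), and that of PYCARD without replicate 4 of every group (-0.44; 0.0610). All differences here use DMSO at 72 h.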

How the results depend on the processing

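No value that passed the test as reported or under an alternative changed sign. Of 4702 values of single genes under alternatives 4469 kept direction and side of the threshold, 117 lost their call, 54 gained one, and 62, of 15 differences that passed in neither, changed sign. With a library or replicate number left out, these ranged, on the log2 scale, for ATRA against DMSO from -0.036 to 0.044 (NLRP3, 4 h) and -0.16 to 1.69 (IL1A, 24 h). For DMSO against untreated cells they ranged from -0.16 to 0.22 (CASP1, 4 h), -0.23 to 0.36 (CASP1, 24 h), -0.11 to 0.49 (CASP1, 120 h), -0.11 to 0.29 (IL1RN, 12 h), -0.36 to 0.15 (IL1RN, 24 h), -0.0036 to 0.38 (IL1R1, 24 h) and -0.074 to 0.041 (GSDMD, 120 h). For the change of the ATRA effect they ranged from 4 to 12 h between -0.19 and 0.76 (IL1A), -0.41 and 0.0032 (IL1B) and -0.40 and 0.39 (IL1R1), from 24 to 72 h between -0.045 and 0.16 (GSDMD), and from 72 to 120 h between -0.49 and 0.14 (CASP1) and -0.10 and 0.13 (GSDMD). CASP1 in DMSO at 4 h was -0.0039 with RLE scaling and -0.0048 with DESeq2, against 0.014. Counts that moved by over 1.5 times did so where 1 library or replicate number was left out: the genes called between DMSO and untreated cells ranged from 4640 to 7529 at 4 h, 2806 to 5619 at 12 h, 2214 to 4818 at 24 h and 3042 to 5735 at 120 h, and those with a changed ATRA effect from 1624 to 3875 (12 h minus 4 h) and 550 to 1855 (24 h minus 12 h). Of the 8 genes, 2 to 4 were called for ATRA at 4 h, 1 to 3 for DMSO at 24 h, 1 to 3 at 72 h, 1 to 4 at 120 h, and 2 to 4 for the change of effect from 4 to 12 h. The log2 difference of the IL1RN to IL1B ratio at 120 h ranged from -6.36 to -5.82 with a library left out.

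Same-numbered libraries of 2 groups had correlations of -0.06 to 0.2 in their deviations from the group means, and in no comparison were all 3 above 0.1. In 3 comparisons each library of the first group correlated best with that of its own number: ATRA against DMSO at 12 and 120 h, and DMSO at 4 h against untreated cells. The labels do not say that a number marks a shared culture or day. The numbers were not taken as pairs, and a replicate block was an alternative. With the replicate block the change of IL1B from 72 to 120 h was 0.90 (adjusted p = 0.0521), GSDMD was lower in DMSO at 12 h (-0.24; 0.0447) and NLRP3 at 120 h (-0.17; 0.0382), and the ratio at 120 h stayed at -6.07 (exact p = 0.25).

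With a replicate number left out of every group IL1R1 lost its ATRA call at 4, 12 and 24 h (adjusted p up to 0.203, 0.172 and 0.316), as did, in DMSO, PYCARD at 4 h (0.0595), CASP1 at 72 h (0.119) and IL1B at 120 h (0.0806).

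Other settings that moved calls: the change of NLRP3 from 4 to 12 h missed the threshold with RLE scaling (adjusted p = 0.0545), no filter (0.258) and its groups alone (0.0961), that of IL1B from 72 to 120 h with its groups alone (0.0703), and PYCARD from 24 to 72 h passed with its groups alone (0.00231). IL1R1 in DMSO missed it at 4 h with no filter (0.132), groups alone (0.0591) and DESeq2 (0.0569), and at 12 h likewise (0.120, 0.0507 and 0.0526). NLRP3 in DMSO at 120 h passed with RLE (0.0258) and DESeq2 (0.0158). The causes were not tested. Depth limits IL1A, IL1RN, IL18, IL1R1 and IL1R2 outside ATRA at 72 and 120 h.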
